A study of Mus musculus with 19 samples.

Results

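RNA was compared between marrow stromal cultures from mice exposed to hypergravity for about 1 week and cultures from control mice, in 6 of the 19 libraries of the series. The 6 libraries were taken by their titles, 3 labelled G-BMSC and 3 labelled Normal-BMSC, and all genes of the table were examined. The labels call the cells bone marrow mesenchymal stem cells (BMSC). The rest of the series holds 4 BMSC libraries of a 3 week set and 9 libraries of bone marrow-derived macrophages (BMDM), the macrophages that marrow cells form under the growth factor M-CSF. The series title places the work on osteoclast formation and the unfolded protein response (UPR), the programme that cells run when misfolded protein builds up in the endoplasmic reticulum.

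Hypergravity mice, listed as C57bl/6, were exposed to 15 G by centrifugation, 15 min per session. Control mice of the same strain are listed as normally fed and at 0 G, with no duration, so the 3 controls are tied to the 1 week set by their titles. The only growth protocol given, for BMSC as for BMDM libraries, is macrophage culture with M-CSF. Nothing states that libraries of a group came from separate animals or cultures, so the p-values measure the spread between these libraries, which may be technical. Library totals were 27.17, 28.9 and 17.6 M gene counts in hypergravity and 28.05, 26.98 and 25.99 M in control cultures.

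Marrow stromal cells are the fibroblast-like, adherent cells of bone marrow; they lay down collagen, can form bone and fat cells, and keep blood stem cells in place with the chemokine CXCL12 and stem cell factor. They also steer osteoclasts, the bone-resorbing cells of the macrophage lineage, through RANKL, its decoy receptor osteoprotegerin and M-CSF. Primary cultures of mouse marrow are known to carry many macrophages along with the stromal cells.

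The markers of these libraries showed both cell types. Lyz2, the lysozyme gene of macrophages and granulocytes, stood at 19248, 22111 and 21361 CPM (counts per 1 M counts of the library, M being 1e6) in hypergravity cultures and at 17842, 17867 and 21941 CPM in control cultures. Col1a1, a chain of type I collagen (mm10, chr11:94936224-94953042, plus strand), stood at 3582, 2983 and 1784 CPM in hypergravity and 1465, 3208 and 1105 CPM in control cultures. All 18 marrow stromal markers and all 17 macrophage markers passed the filter on low counts. All 10 monocyte and all 14 neutrophil markers passed it too, so passing does not give the share of a cell type. The macrophage markers summed to means of 27060 CPM in hypergravity and 25604 CPM in control cultures. The stromal markers summed to 1512 and 1335 CPM, and such sums are not shares of cells either. The libraries are therefore mixtures by their markers, and in such bulk samples fewer cells of a type and less RNA per cell cannot be told apart.

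Of 15289 genes tested with edgeR's quasi-likelihood test, 416 (2.72%) differed between hypergravity and control cultures at an adjusted p below 0.05. Of these, 378 (2.47%) were lower in hypergravity cultures and 38 (0.249%) were higher. Most changes were small: the median log2 change was -0.59 among the genes that fell and 0.57 among those that rose. By more than 1 log2 unit, 48 genes fell and 7 rose, and these 7 had means of 0.482 to 6.14 CPM in hypergravity cultures. The largest rise, 3.73, was that of Igkv6-15, an immunoglobulin kappa variable gene picked after its values were seen. It stood at 12.8, 3.39 and 2.22 CPM in hypergravity and 0.321, 0.630 and 0.385 CPM in control cultures, with replicate 1 far the highest. The 3 hypergravity values lay wholly above or below the 3 control values for 403 of the 416 genes, against 20.5% of all tested genes (11.2% with hypergravity higher, 9.33% with hypergravity lower). The calls were made from these same values, so this separation is not separate evidence for them. The counts rest on the spread estimated from all 10 BMSC libraries and on single libraries. No gene passed when the 6 libraries were fitted alone (smallest adjusted p 0.0516 in edgeR, with 2117 genes at an unadjusted p below 0.05), without hypergravity replicate 2 (1722 genes) or without control replicate 1 (1804 genes). Leaving out hypergravity replicate 1 gave 255 calls, hypergravity replicate 3 gave 169, and control replicate 3 gave 1109. DESeq2 made 884 calls, of which 410 were among the 416. Scaling by library totals alone gave 67 higher and 215 lower genes.

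The deepest fall was that of Gstp1, the pi class glutathione S-transferase that joins glutathione to reactive compounds (mm10, chr19:4035407-4037985, minus strand). It had 24, 64 and 42 counts in hypergravity and 607, 503 and 624 counts in control libraries, or 0.883, 2.21 and 2.39 CPM in hypergravity against 21.6, 18.6 and 24.0 CPM in control cultures. The groups stood far apart, with a log2 change of -3.61 ± 0.62 (SE) and an edgeR adjusted p of 0.0194. Gstp2, a near-identical neighbour, had 0 or 1 count in these libraries, and how the counting shared reads between such copies is not given in the sources used here. Gstp1 also varied within groups elsewhere in the series, from 1 to 209 counts in the hypergravity BMDM libraries at 3 weeks and from 25 to 335 counts in the control BMDM libraries at 1 week. In BMSC of the 3 week set it had 18 and 89 counts in hypergravity and 344 and 117 counts in control libraries, and that difference was not called (log2 change -2.37 ± 0.74, edgeR adjusted p 0.899).

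Ago2 was among the most clearly separated genes. It encodes the Argonaute protein that holds small RNAs and can cut their targets (mm10, chr15:73095844-73184935, minus strand). It stood at 66.3, 41.0 and 49.3 CPM in hypergravity and at 131, 127 and 129 CPM in control cultures. The highest hypergravity value was well under the lowest control value, and Ago2 fell by 1.35 ± 0.15 on the log2 scale (edgeR adjusted p 0.00903).

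Several membrane and trafficking genes fell by a similar size. Lnpep, the insulin-regulated aminopeptidase that travels with glucose transporter vesicles, stood at 57.4, 37.1 and 42.5 CPM in hypergravity and 138, 138 and 88.1 CPM in control cultures (log2 change -1.44 ± 0.17, edgeR adjusted p 0.00949). Tmem245, a multi-pass membrane protein gene, stood at 24.6, 17.3 and 17.0 CPM in hypergravity and 51.7, 52.8 and 47.5 CPM in control cultures (log2 change -1.40 ± 0.15, edgeR adjusted p 0.00903). The groups did not overlap for either gene, and for both the highest hypergravity value was replicate 1. Aak1, a kinase of clathrin-coated vesicles, had a log2 change of -1.26 ± 0.21 and Lmbrd2, a membrane protein linked to receptor signalling, one of -1.44 ± 0.20. The edgeR adjusted p was 0.0180 for Aak1 and 0.0113 for Lmbrd2.

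The other genes with the largest falls had diverse roles. Zbed6, which encodes a transcriptional repressor of Igf2, stood at 41.7, 24.3 and 21.9 CPM in hypergravity and 85.1, 103 and 52.4 CPM in control cultures (log2 change -1.48 ± 0.27, edgeR adjusted p 0.0215). Uhmk1, a kinase of splicing factors, fell by 1.36 ± 0.18 on the log2 scale (edgeR adjusted p 0.00949). Xylt1, the xylosyltransferase that starts glycosaminoglycan chains on proteoglycans, fell by 1.31 ± 0.20 (edgeR adjusted p 0.0131). Kcna2, a voltage-gated potassium channel gene, Zfp369, a zinc finger gene, and Uprt, a gene of the uracil phosphoribosyltransferase family, were low, with means of 4.41, 4.34 and 4.41 CPM in hypergravity and 11.1, 10.9 and 10.5 CPM in control cultures. The log2 changes of these 3 genes lay between -1.35 and -1.27. The gene with the smallest p among all falls, Ddi2, a protease that activates the proteasome-inducing factor NRF1, stood at 16.4, 14.5 and 14.4 CPM in hypergravity and 27.8, 31.8 and 31.4 CPM in control cultures (log2 change -1.04 ± 0.10, edgeR adjusted p 0.00903). Ddi2 was singled out after its values were seen.

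Ribosomal protein genes were frequent among the rises of well-expressed genes. Of the 12 largest rises among genes with at least 5 CPM on average and no clone name, 8 carry ribosomal protein names, of which Rpl36a-ps2 is named as a pseudogene. Like it, Rps3a3 and Rpl6l have no annotated coding sequence. Rpl14, a protein of the large ribosomal subunit (mm10, chr9:120571444-120574654, plus strand), stood at 131, 140.5 and 129.8 CPM in hypergravity and 78.9, 86.3 and 79.2 CPM in control cultures. The groups lay apart by several times their spread, with a log2 change of 0.68 ± 0.08 and an edgeR adjusted p of 0.00949. Rps21, of the small subunit, stood at 172, 222 and 190.3 CPM in hypergravity and 118, 113 and 129 CPM in control cultures (log2 change 0.66 ± 0.14, edgeR adjusted p 0.0357). Rpl22l1, Rpl32, Rpl6l, Rps3a3 and Rpl36a-ps2 had log2 changes between 0.58 and 0.79. Reads of ribosomal protein genes and their many processed copies are hard to tell apart, so which copy rose is uncertain.

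**Figure D1:**
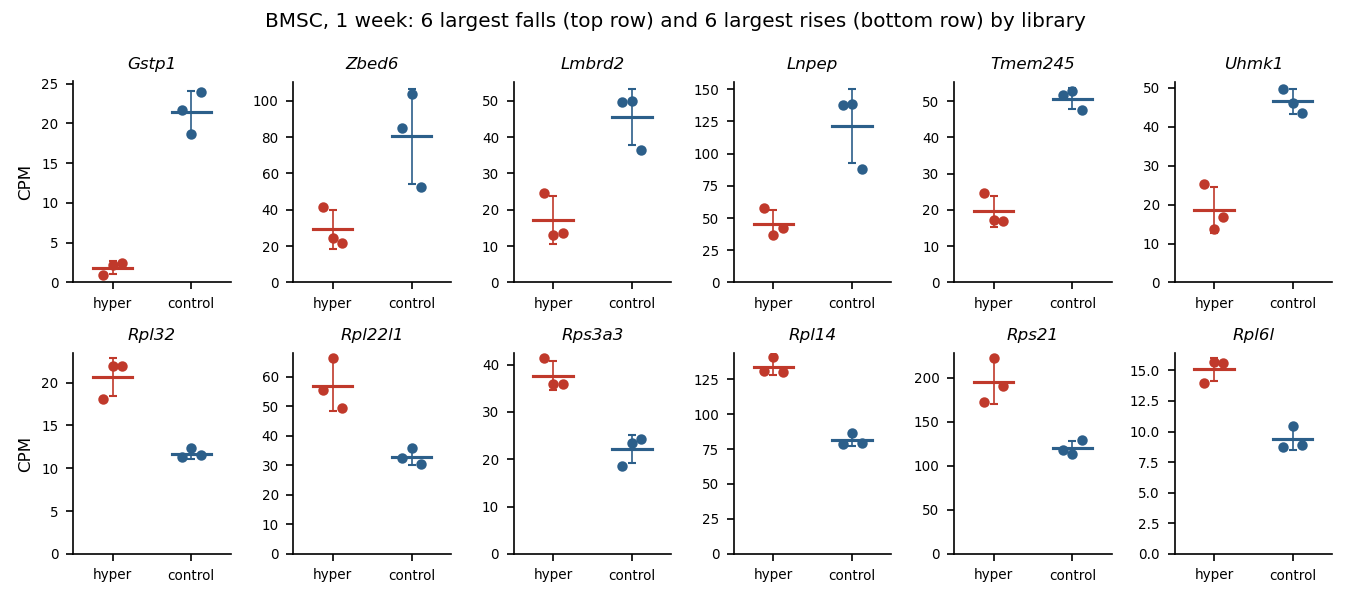
Counts per 1 M counts (CPM, linear axes from 0) of the 6 largest falls and the 6 largest rises among called genes with at least 5 CPM on average, no overlap between groups and no clone name, with 1 point per library, the mean as a horizontal line and the SD as a bar, hypergravity (red) left of control (blue). Genes without overlap were chosen for the plot, and Gstp1 shows the widest gap, at 0.883 to 2.39 CPM in hypergravity and 18.6 to 24.0 CPM in control cultures.

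The shift extended over the ribosomal protein genes as a group, which was picked after the values of single genes were seen. The 78 tested genes of cytosolic ribosomal proteins were taken by name, with Rpl6l included. All 78 had a log2 change above 0, under edgeR's scaling, DESeq2's size factors and library totals alone, and 77 did without control replicate 1. Their median log2 change was 0.37, against 0.0046 over all tested genes. Of the 78 genes, 9 passed the test as higher, beside 0.249% of all tested genes, among them Rpl14, Rpl29, Rpl32, Rpl6l, Rps14, Rps2 and Rps21. That count was 0 with the 6 libraries alone, without hypergravity replicate 2 or without control replicate 1. It was 5 without hypergravity replicate 1, 1 without hypergravity replicate 3, 4 without control replicate 2 and 41 without control replicate 3, and 23 with library totals and 28 with DESeq2. Ribosomal protein genes took 2.15%, 2.24% and 2.11% of all counts in hypergravity and 1.54%, 1.69% and 1.76% in control libraries. The 2 groups did not overlap in this share, and the exact two-sided permutation test gave p = 0.1, the smallest that 3 against 3 libraries allow.

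Vertebrate ribosomal protein mRNAs are known to begin with a run of pyrimidines, the 5′ terminal oligopyrimidine tract, through which mTOR signalling sets their translation. The windows printed here are of 30 bases each, around the longest run of C and T near the annotated start. They set called ribosomal protein genes beside genes that fell, and the run need not lie at the start itself. The first 3 belong to ribosomal protein genes called higher with an entry in the RefSeq promoter table of build GRCm38.p6, and the last 2 to long genes that fell. They are written 5′ to 3′ on the gene's strand, with a run of at least 8 C or T in capitals.
Rpl14, chr9:120571501-120571530, plus strand: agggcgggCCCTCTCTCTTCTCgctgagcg
Rps2, chr17:24720083-24720112, plus strand: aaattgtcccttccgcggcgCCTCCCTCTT
Rps21, chr2:180257399-180257428, plus strand: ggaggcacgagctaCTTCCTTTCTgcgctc
Kmt2a, chr9:44881289-44881318, minus strand: gtgttgtcgCCTCTCCCTCTCgctgcttca
Herc1, chr9:66350401-66350430, plus strand: tctcgcgagagttccctcataagtcccgcg

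A run of at least 8 pyrimidines on the gene's strand, within 50 bases before to 50 bases after the annotated start, was present in 50 of the 57 ribosomal protein genes with an entry (87.7%). The share was 37.6% of tested genes with an entry and 39.3% of all genes in the promoter table. Among genes called higher it was 64.7% (11 of 17 with an entry), and among genes called lower it was 40.6%. Kmt2a, which fell, holds a run of 12, and Herc1, which also fell, holds none of that length. The runs printed for Rps2 and Rps21 lie downstream of the annotated start, toward the end of the bases searched, and not at the start itself. The match is a description of the letters in these windows and not of a site in use.

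The other genes that rose were mostly short and of moderate size of change. Krtcap2, a subunit of the enzyme that attaches N-linked sugars to proteins, stood at 60.2, 65.1 and 50.7 CPM in hypergravity and 37.9, 38.6 and 38.7 CPM in control cultures (log2 change 0.57 ± 0.09, edgeR adjusted p 0.0166). Selm, a selenoprotein gene of the endoplasmic reticulum, rose by 0.55 ± 0.11 on the log2 scale (edgeR adjusted p 0.0342), and Cisd3, which encodes an iron-sulfur protein of mitochondria, by 0.57 ± 0.13 (edgeR adjusted p 0.0464). Mif, the cytokine macrophage migration inhibitory factor, stood at 101.1, 101.4 and 73.7 CPM in hypergravity and 56.6, 72.1 and 60.3 CPM in control cultures (log2 change 0.51 ± 0.11, edgeR adjusted p 0.0382). Its lowest hypergravity value, in replicate 3, was close to the highest control value. Ldhb, the heart-type lactate dehydrogenase subunit, stood at 34.8, 39.3 and 32.1 CPM in hypergravity and 24.3, 23.9 and 24.0 CPM in control cultures (log2 change 0.52 ± 0.10, edgeR adjusted p 0.0233). Mif and Ldhb were singled out after their values were seen, as was the unnamed locus LOC108168974. That locus had 66, 89 and 52 counts in hypergravity and 6, 7 and 11 counts in control libraries (log2 change 3.18 ± 0.39, edgeR adjusted p 0.00949), and in the 3 week set 4 and 4 counts in hypergravity and 9 and 5 counts in control libraries.

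The called genes differed in transcript length. The longest annotated transcript had a median of 7813 bases among genes that fell and 820 bases among genes that rose, against 2966 bases over all tested genes. Genes were split by length into 10 groups of equal size. In the group with the longest transcripts, 267 of 1458 (18.3%) were called lower and none higher, with a median log2 change of -0.33. In the group with the shortest transcripts, 24 genes were called higher and 1 lower, with a median log2 change of 0.25. Between these ends the median fell with each step in length. Across 14572 genes with an annotated length, the log2 change had a Spearman correlation of -0.457 with transcript length, -0.408 with coding length, -0.338 with 3′ UTR length and 0.233 with GC content; genes are not independent replicates and share these 6 libraries. In the 3 week set the same end groups had median log2 changes of 0.041 (longest) and -0.099 (shortest).

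**Figure D2:**
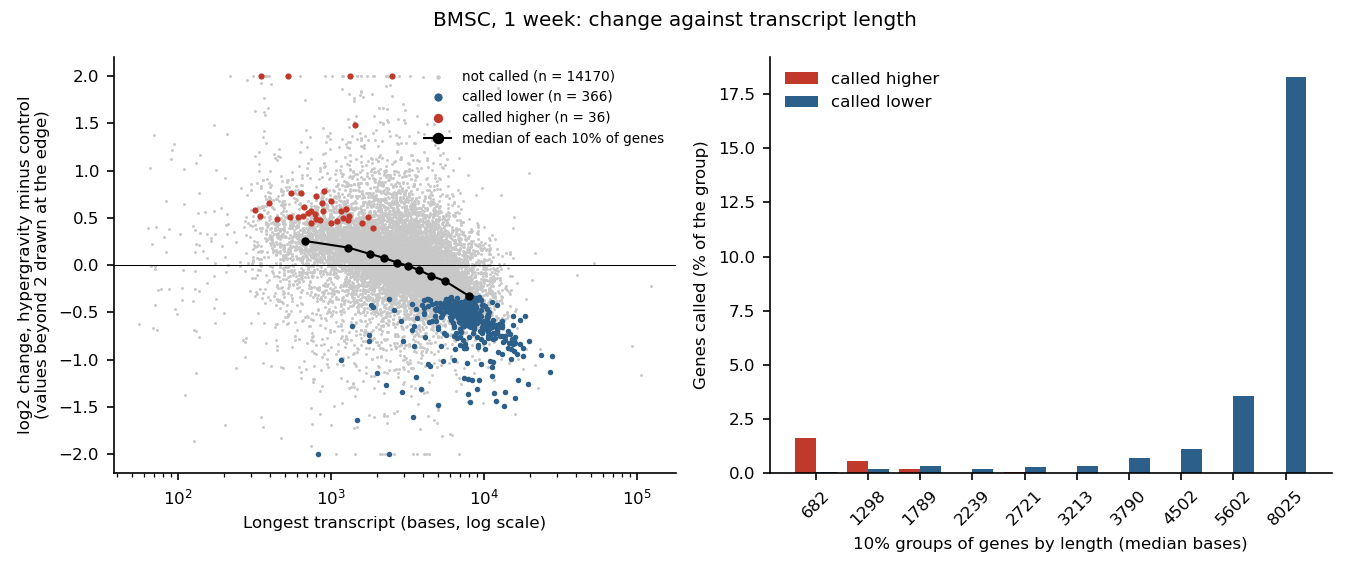
Left, the log2 change (hypergravity minus control) of each tested gene against the length of its longest transcript (log axis), with called genes coloured and the median of 10 equal groups by length in black; right, the share of each group called higher (red) and lower (blue). The black line lies at 0.25 in the shortest group and at -0.33 in the longest, where 18.3% of genes were called lower.

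The length gradient was a property of single libraries as well as of the groups. Transcripts of at least 5000 bases took 20.3%, 17.8% and 17.0% of the counts in hypergravity and 21.8%, 24.0% and 18.99% in control libraries. Hypergravity replicate 1 lay above control replicate 3, so the groups overlapped, and the exact two-sided permutation test gave p = 0.2. The labels give an RNA integrity number over 8.0 as the requirement for a library, and no value per library. When a per-library trend with transcript length was removed, an alternative added after the data were seen, 5 genes were called: Fcna, Lnpep, Hmbox1 and Kcnj10 lower and LOC108168974 higher. The part of RNA integrity or library preparation in the length gradient was not tested.

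These 5 genes are those whose difference was called both with and without the length trend. LOC108168974 has no annotated length, so the step took no trend from it and its log2 change stayed at 3.18. Fcna, a ficolin of macrophages that binds bacterial sugars, stood at 31.7, 39.4 and 32.2 CPM in hypergravity and 52.1, 53.9 and 51.8 CPM in control cultures. With the trend removed its log2 change was -0.82 ± 0.09 (edgeR adjusted p 0.0279), and without that step -0.65. Kcnj10, an inward-rectifier potassium channel gene, stood at 22.1, 22.6 and 24.1 CPM in hypergravity and 48.7, 49.8 and 37.6 CPM in control cultures, and its log2 change with the trend removed was -0.84 ± 0.11 (edgeR adjusted p 0.0411). Hmbox1, a homeobox protein gene linked to telomeres, stood at 73.9, 61.9 and 62.6 CPM in hypergravity and 105, 114 and 93.9 CPM in control cultures, with -0.66 ± 0.08 on the same scale (edgeR adjusted p 0.0371). Lnpep kept a log2 change of -0.95 ± 0.11 (edgeR adjusted p 0.0279). Gstp1 had one of -3.85 with an edgeR adjusted p of 0.0507, and Rpl14 one of 0.47 with the same adjusted p. The ribosomal protein genes had a median of 0.15 with the trend removed, 72 of 78 stayed above 0 and none was called.

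Among the genes that fell were several families of long genes, chosen after their values were seen. Of 12 tested genes of small RNA silencing, 2 had a log2 change above 0. None was called higher and 7 were called lower: Ago1, Ago2, Ago3, Tnrc6a, Tnrc6b, Tnrc6c and Dicer1. The Argonaute proteins carry microRNAs, the TNRC6 proteins link them to mRNA decay, and Dicer cuts the microRNA precursors. Ago3 stood at 48.3, 32.8 and 36.1 CPM in hypergravity and 76.9, 79.0 and 49.3 CPM in control cultures (log2 change -0.84 ± 0.17, edgeR adjusted p 0.0332). Tnrc6b stood at 51.3, 39.4 and 38.3 CPM in hypergravity and 80.7, 90.9 and 54.4 CPM in control cultures (log2 change -0.83 ± 0.15, edgeR adjusted p 0.0215). In both genes control replicate 3 was the lowest control and lay just above hypergravity replicate 1. Dicer1 fell by 0.42 ± 0.08 on the log2 scale (edgeR adjusted p 0.0294).

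Of 42 histone lysine methyltransferase and demethylase genes, 10 were called lower and none higher. Of the 42, 9 had a log2 change above 0, up to 1.99. Kmt2a, a methyltransferase of histone H3 lysine 4 at Hox and other genes (mm10, chr9:44803355-44881296, minus strand), stood at 64.5, 48.4 and 49.7 CPM in hypergravity and 104.6, 117 and 82.9 CPM in control cultures (log2 change -0.93 ± 0.12, edgeR adjusted p 0.00949). Its relatives Kmt2c, Kmt2d and Kmt2e also fell, as did Nsd1, Setd1b, Whsc1, Kdm2a, Kdm3b and Kdm5a. Of 28 HECT and UBR ubiquitin ligase genes, which mark proteins for breakdown, 10 were called lower and none higher, and 1 had a log2 change above 0. Huwe1 stood at 199.9, 157 and 165 CPM in hypergravity and 302, 350.2 and 256 CPM in control cultures (log2 change -0.82 ± 0.12, edgeR adjusted p 0.0131). Herc1 and Herc2 fell by 0.82 ± 0.11 and 0.78 ± 0.10 on the log2 scale (edgeR adjusted p 0.0104 and 0.00949). Of the 4 VPS13 genes, whose proteins move lipids between organelles, Vps13b, Vps13c and Vps13d fell, with log2 changes of -0.79, -1.03 and -0.79, and Vps13a, at -0.55, was not called.

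The background for these counts is the 2.47% of tested genes called lower, and the median transcript of the families is long: 7705 bases for the silencing genes, 6468 for the histone enzymes, 7037 for the ligases and 12642 for the VPS13 genes. With the length trend removed, no member of these 4 families was called, and their median log2 changes were -0.14, -0.062, -0.091 and -0.24, where they had been -0.43, -0.26, -0.37 and -0.79. The zinc finger genes named Zfp, a large family of medium length, had 9 of 307 called lower and a median of -0.050. Of 36 proteasome subunit genes, 33 had a log2 change above 0 and none was called, with a median of 0.13 and a median transcript of 1586 bases.

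**Figure D3:**
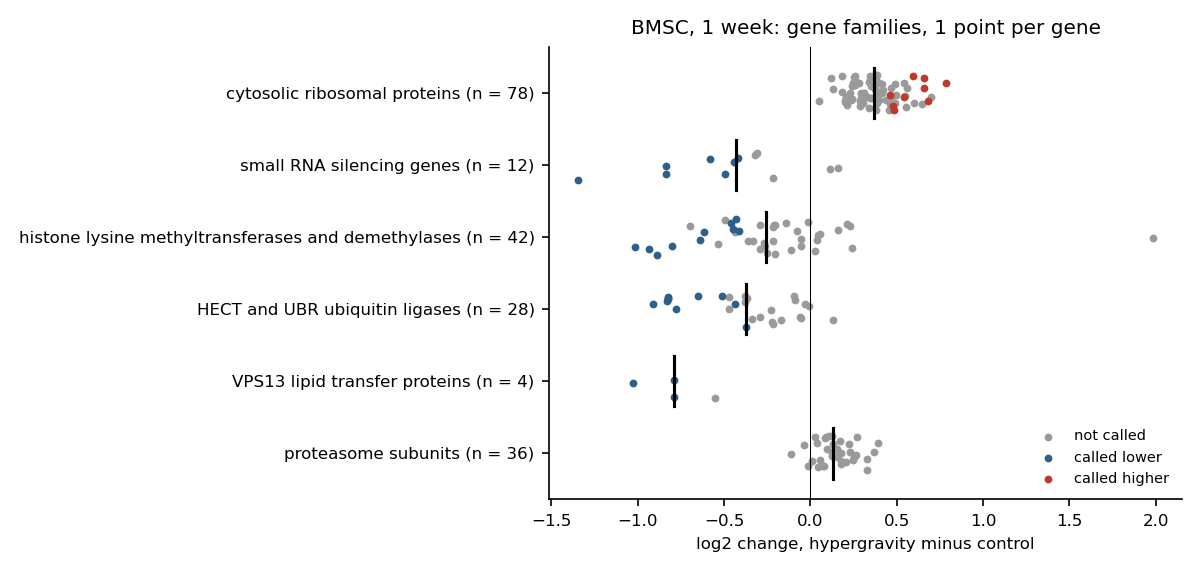
Log2 change (hypergravity minus control) of each tested gene in 6 families, 1 point per gene, with called genes in red (higher) or blue (lower) and the family median as a black bar. All 78 ribosomal protein genes lie right of 0, and most genes of the 4 families of long genes lie left of it.

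Across 49 gene lists for marrow cell types and pathways, 11 of the 653 tested members were called, 2 higher and 9 lower, a share below the 2.72% of all tested genes. Among stromal markers, 1 of 18 fell. Vcam1, the adhesion molecule by which stromal cells and macrophages hold blood cells (mm10, chr3:116109949-116129688, minus strand), stood at 244, 258 and 189 CPM in hypergravity and 437, 464 and 318 CPM in control cultures. The groups did not overlap, with a log2 change of -0.85 ± 0.13 (edgeR adjusted p 0.0149). Itga4, a subunit of the integrin that binds VCAM1, stood at 99.3, 82.4 and 95.6 CPM in hypergravity and 179, 162 and 108 CPM in control cultures (log2 change -0.72 ± 0.15, edgeR adjusted p 0.0342), the 1 of 16 integrin genes to be called. After removal of the length trend, the log2 change was -0.82 for Vcam1 and -0.31 for Itga4. Neither was called in that fit (edgeR adjusted p 0.0580 and 0.470).

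Macrophage markers had 2 of 17 members called lower and none higher. Siglec1, the sialic acid receptor CD169 of marrow macrophages, stood at 87.2, 68.2 and 55.6 CPM in hypergravity and 131, 105 and 107 CPM in control cultures (log2 change -0.75 ± 0.15, edgeR adjusted p 0.0312). Mertk, a receptor for the uptake of dying cells, stood at 117, 120.4 and 119 CPM in hypergravity and 169, 152 and 147 CPM in control cultures (log2 change -0.43 ± 0.09, edgeR adjusted p 0.0368). The summed level of the whole macrophage list overlapped between groups, at 25065, 28449 and 27668 CPM in hypergravity and 24461, 23794 and 28559 CPM in control cultures. Lyz2 made up most of that sum, so it says little of the other members. Gene by gene, 12 of the 17 had a log2 change below 0 and 5 above, with a median of -0.20. Slc40a1, the iron exporter ferroportin, fell by 0.41 ± 0.09 on the log2 scale (edgeR adjusted p 0.0452), and Acaca, which makes malonyl-CoA for fatty acid synthesis, by 0.47 ± 0.10 (edgeR adjusted p 0.0331). The mast cell gene Ms4a2 was called lower at mean levels of 0.286 CPM in hypergravity and 1.23 CPM in control cultures. After removal of the length trend, the log2 change was -0.53 for Siglec1, -0.34 for Mertk, -0.39 for Slc40a1 and -0.11 for Acaca. None of these genes, nor Ms4a2, was called in that fit.

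UPR genes moved in both directions. The list of 10 tested sensors and transcription factors had 1 member higher and 2 lower, with a median log2 change of -0.049. Ern1, which encodes the stress sensor IRE1 alpha (mm10, chr11:106394650-106487852, minus strand), stood at 30.3, 18.8 and 24.2 CPM in hypergravity and 40.1, 42.6 and 38.1 CPM in control cultures (log2 change -0.76 ± 0.16, edgeR adjusted p 0.0342). Atf6, the sensor that is cut in the Golgi, stood at 118, 108 and 122 CPM in hypergravity and 159, 148 and 155 CPM in control cultures (log2 change -0.45 ± 0.10, edgeR adjusted p 0.0482). Both sensors were lower in every hypergravity library than in any control, and both have long transcripts, of 6946 and 7246 bases. With the length trend removed their log2 changes were -0.51 for Ern1 and -0.18 for Atf6, and neither was called (edgeR adjusted p 0.267 and 0.699).

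The third sensor gene, Eif2ak3, which encodes PERK, was not called, with a log2 change of -0.063 ± 0.079. Ddit3, which encodes the stress factor CHOP (mm10, chr10:127290774-127296288, plus strand), stood at 33.8, 26.3 and 22.1 CPM in hypergravity and 17.1, 21.5 and 15.6 CPM in control cultures. Its lowest hypergravity value was just above the highest control value, and its call was marginal (log2 change 0.57 ± 0.13, edgeR adjusted p 0.0490). Atf4, the factor upstream of CHOP, stood at 289.6, 273 and 245 CPM in hypergravity and 206, 234 and 221 CPM in control cultures and was not called (log2 change 0.25 ± 0.09, edgeR adjusted p 0.164). Of 23 ATF4 and CHOP targets, 19 had a log2 change above 0, the median was 0.40 and 1 was called: Ddit4, an inhibitor of mTOR, at 58.7, 61.2 and 50.3 CPM in hypergravity and 35.4, 45.7 and 36.2 CPM in control cultures (log2 change 0.51 ± 0.11, edgeR adjusted p 0.0346). The median transcript of these 23 targets is 2085 bases. Tested genes of 2005 to 2490 bases had a median log2 change of 0.075, and all tested genes one of 0.0046. With the length trend removed, Ddit3 had a log2 change of 0.35 and Ddit4 one of 0.38, and neither was called (edgeR adjusted p 0.527 and 0.264). Xbp1 had a log2 change of 0.086 ± 0.091 and the chaperone gene Hspa5 one of 0.040 ± 0.097, and none of 24 chaperone and degradation genes of the endoplasmic reticulum was called.

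Collagen and niche genes varied more between libraries of a group than between the groups. The 18 collagen genes summed to 15799, 12548 and 7929 CPM in hypergravity and 7437, 15738 and 5795 CPM in control cultures, so hypergravity replicates 1 and 2 and control replicate 2 were high and the others low. None of the 18 was called, and Col1a1 had a log2 change of 0.52 ± 0.38 (edgeR adjusted p 0.508). Cxcl12, at 1091, 764 and 299 CPM in hypergravity and 244, 808 and 233 CPM in control cultures, showed the same split, with a log2 change of 0.73 ± 0.51 (edgeR adjusted p 0.484). Acta2, smooth muscle actin, stood at 1135, 1030.3 and 569 CPM in hypergravity and 385, 965 and 320 CPM in control cultures (log2 change 0.70 ± 0.42, edgeR adjusted p 0.406).

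The 13 tested osteoblast genes had a median log2 change of 0.54 and none was called. Sp7, which encodes osterix, the factor needed for bone-forming cells, stood at 2.65, 2.77 and 1.42 CPM in hypergravity and 0.499, 1.37 and 0.885 CPM in control cultures (log2 change 1.29 ± 0.38, edgeR adjusted p 0.106). Alpl, alkaline phosphatase, had a log2 change of 0.68 ± 0.33 (edgeR adjusted p 0.308) and Runx2 one of -0.03 ± 0.16. The osteoclast regulators were not called either: the log2 change was 0.70 ± 0.49 for Tnfsf11 (RANKL), 0.51 ± 0.50 for Tnfrsf11b (osteoprotegerin) and 0.41 ± 0.23 for Csf1 (M-CSF). Kitl, stem cell factor, had one of 0.13 ± 0.32, and its sign turned without hypergravity replicate 1 or control replicate 3. The SEs of Tnfsf11, Tnfrsf11b, Cxcl12 and Acta2 were close in size to many of the changes called elsewhere, so such changes were not detectable in these genes.

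Markers of other cell types also differed from library to library. Pericyte and smooth muscle markers summed to 1899, 1661 and 928 CPM in hypergravity and 663, 1601 and 536 CPM in control cultures, and neutrophil markers to 2659, 2666 and 1263 CPM in hypergravity and 3271, 3400 and 1978 CPM in control cultures. Endothelial markers summed to 565, 355 and 235 CPM in hypergravity and 387, 494 and 258 CPM in control cultures. Across the 18 cell type lists, the exact two-sided permutation test over the 3 against 3 libraries gave its smallest possible p of 0.1 for the neuronal and Schwann cell list alone, which summed to 15.8, 21.0 and 16.4 CPM in hypergravity and 7.95, 14.7 and 4.89 CPM in control cultures. The part of cell makeup in the called genes was not tested.

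**Figure D4:**
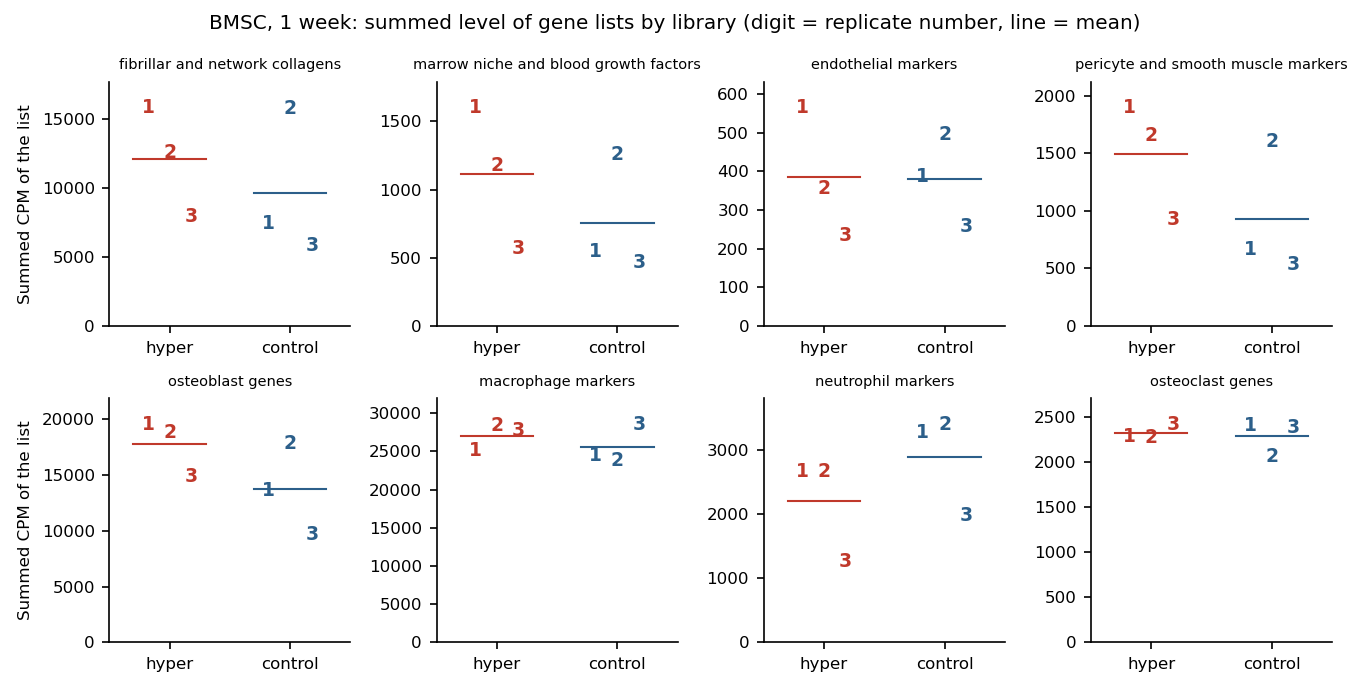
Summed CPM of 8 gene lists in each library (linear axes from 0), with the replicate number as the symbol, the mean as a line, and hypergravity (red) left of control (blue). Collagens, niche factors and pericyte markers are high in hypergravity replicates 1 and 2 and control replicate 2 and low in the other libraries, and the groups overlap in all 8 lists.

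Energy genes had small differences that did not pass the test. Of 19 nuclear genes of oxidative phosphorylation, 17 had a log2 change above 0, with a median of 0.22. In 9 of the 19 every hypergravity value lay above every control value, beside 11.2% of all tested genes, and none was called. Ndufb5, of respiratory complex I, stood at 53.9, 65.8 and 58.2 CPM in hypergravity and 42.8, 42.9 and 48.0 CPM in control cultures (log2 change 0.37 ± 0.14, edgeR adjusted p 0.174). The median transcript of this list is short, at 1623 bases. Mitochondrially encoded genes took 1.67 ± 0.22% of counts in hypergravity and 1.69 ± 0.11% in control libraries (SD, n = 3 each; exact two-sided permutation p = 0.8).

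Of 16 tested p53 targets and senescence genes none was called. Cdkn2a, the locus of the cell cycle inhibitors p16 and ARF, came closest, at 3.50, 4.57 and 4.09 CPM in hypergravity and 1.71, 2.48 and 1.62 CPM in control cultures (log2 change 1.04 ± 0.24, edgeR adjusted p 0.0504). Its groups did not overlap. Proliferation genes had a median log2 change of -0.0059 with none of 23 called. Interferon-stimulated genes had 20 of 22 members below 0, a median of -0.36 and none called, with control replicate 1 high: Oas3, a sensor of viral RNA, stood at 25.2, 24.3 and 18.4 CPM in hypergravity and 64.8, 20.3 and 48.5 CPM in control cultures (log2 change -1.03 ± 0.35, edgeR adjusted p 0.143).

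In the 3 week set of BMSC (2 hypergravity and 2 control libraries), no gene was called in the same edgeR fit, and 800 had an unadjusted p below 0.05. Of the 378 genes lower at 1 week, 214 were also below 0 at 3 weeks, with a median log2 change of -0.020 there. Of the 38 genes higher at 1 week, 21 were above 0 at 3 weeks, with a median of 0.056. Ago2 had a log2 change of 0.019 at 3 weeks and Rpl14 one of 0.025. No gene passed the edgeR test of the difference between the 1 week and the 3 week response (smallest adjusted p 0.254, 1423 genes at an unadjusted p below 0.05), while DESeq2 called 103. Duration and set cannot be told apart in this comparison.

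The 1 week response of BMSC differed from that of BMDM (2 hypergravity and 3 control libraries) for 7712 of 15550 genes (49.6%) in an edgeR fit of all 19 libraries. The gap was wide in inflammatory genes. All 17 tested NF-kB inflammatory genes were called higher in hypergravity BMDM, where 55.3% of all genes were called in either direction. None of the 17 was called in BMSC, and all 17 differed between the responses. Saa3, an acute phase protein gene, averaged 37.9 CPM in hypergravity and 44.0 CPM in control BMSC, whereas it averaged 17544 CPM in hypergravity and 3.31 CPM in control BMDM. The response of Saa3 in BMSC minus that in BMDM was -12.84 ± 0.48 on the log2 scale (edgeR adjusted p 6.1e-12). Cxcl2, a chemokine gene for neutrophils, differed by -9.61 ± 0.38, Il1b by -9.87 ± 0.50 and Ptgs2, the inducible cyclooxygenase gene, by -10.69 ± 0.55.

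The same held for other lists, each with members that differed between the responses by the test of the difference itself. Beside these counts stand the 55.3% of all genes called in BMDM in either direction, and the 49.6% that differed. Of 22 interferon-stimulated genes, 21 were called higher in BMDM and all 22 differed, and of 25 hypoxia and glycolysis genes 23 were called higher in BMDM and 24 differed. Of 23 proliferation genes, 21 were called lower in BMDM and 21 differed. Of 23 ATF4 and CHOP targets, 18 were called higher in BMDM and 16 differed; Atf4 itself differed by -1.52 ± 0.15. Ern1 was among the genes with opposite signs, since it fell in BMSC and its response was 2.60 log2 units below that in BMDM (edgeR adjusted p 5.71e-05). Ago2 was another, at 136 CPM in hypergravity and 34.3 CPM in control BMDM, with a difference of -3.62 ± 0.57 (edgeR adjusted p 6.23e-05).

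**Figure D5:**
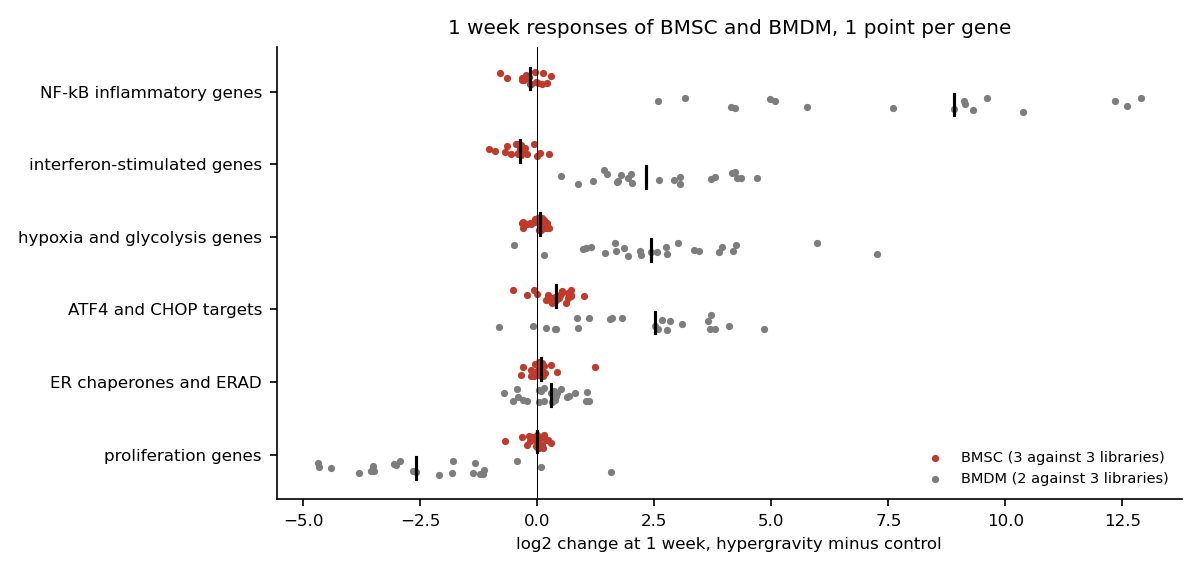
Log2 change at 1 week (hypergravity minus control) of each gene in 6 lists, 1 point per gene, in BMSC (red) and BMDM (grey), with the list median as a black bar. None of the NF-kB inflammatory genes was called in BMSC, while all 17 were called higher in BMDM; BMSC medians were -0.36 for interferon-stimulated genes and 0.40 for ATF4 and CHOP targets.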

How the data were processed

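Raw gene counts, 1 column per library and 1 symbol per line, were used as deposited by the authors. The submitters' processing notes name HISAT2 2.0.4 as aligner and the mm10 build. How reads were assigned to genes (program, annotation, strand) is not given in the sources used here, so overlapping and antisense genes and near-identical copies are uncertain. Of 46095 symbols, 33980 matched GENCODE vM21 by symbol and 529 by an older symbol, for positions, transcript length and GC content only.

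Counts were tested with edgeR 4.0.16 (R 4.3.3; quasi-likelihood test, TMM scaling, filterByExpr, no covariate) over the 10 BMSC libraries, with 6 residual degrees of freedom, and over all 19 libraries for BMSC against BMDM. The threshold for a call was a Benjamini-Hochberg adjusted p of 0.05. CPM are per raw library total and log2 changes, with SE, follow TMM. The SE was taken as the size of the log2 change divided by the square root of the F statistic of the edgeR test. A count of 3 was worth 0.104 to 0.170 CPM in the 6 libraries; such floors cover counting error only. Replicates differed far beyond counting error, so none was treated as a repeat. Named genes were the 12 largest rises and falls among called genes with at least 5 CPM, no overlap between groups and no clone name, a fixed set of 30, and up to 4 per list by smallest p; the text marks genes singled out later, and a few named by the rule are not reported here. Members and lists were chosen with earlier results of these data known. Scripts were tested on simulated data. Alternatives were DESeq2 1.42.0, other scalings and filters, a log2 threshold, a replicate block, other sets of libraries, and removal of a length or GC trend. Each trend was a lowess curve per library, entered as an offset in edgeR.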

Additional observations from a re-analysis of the deposited data

Results flagged for a closer look

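The responses of BMSC and BMDM at 1 week were set apart by the edgeR test of the difference, for 7712 genes. Among genes of the fixed set, the BMSC minus BMDM difference in log2 response was -12.84 for Saa3, -10.69 for Ptgs2, -9.87 for Il1b, -9.61 for Cxcl2, -2.90 for Acp5, -2.60 for Ern1, -1.52 for Atf4, -1.47 for Piezo1, -1.36 for Csf1 and -1.02 for Hspa5. It was above 0 for Eif2ak3 (0.88) and Nfatc1 (0.82), which were called lower in BMDM and not in BMSC.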

How the results depend on the processing

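The count of called genes (416: 38 higher, 378 lower) was 884 with DESeq2 (192 higher, 692 lower), 1313 with no count filter (499, 814), 67 higher and 215 lower with library totals, and 657 with a replicate block (97 higher). It was 0 (0 higher, 0 lower) for changes of at least 1 log2 unit and for the 6 libraries alone, 2 (2, 0) with all 19 libraries, 5 (1, 4) with the length trend removed, and 62 higher with the GC trend removed. Leaving out 1 library gave 0 to 1109 called, 0 to 252 higher and 0 to 857 lower. Called list members (11) numbered 33 with DESeq2, 5 with library totals, 128 with no count filter, 33 with the replicate block, 0 under the log2 threshold, the 6 libraries, all 19 libraries and the length trend removed, and 0 to 32 leaving out 1 library. Same-numbered libraries deviated together with r of -0.10, 0.12 and 0.38, so the numbers were not taken to pair them. The difference from the 3 week response (0 genes) had 103 with DESeq2 and 391 with no filter; that from BMDM (7712) had 2536 beyond 1 log2 unit.

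Signs turned for the summed endothelial (-0.015) and osteoclast (-0.013) markers after TMM, and for uncalled genes near 0: with the length trend removed, Runx2 (0.22), Acp5 (-0.0037), Eif2ak3 (0.039) and Lyz2 (-0.095); and Cxcl2 with library totals (0.0083), all 19 libraries (0.0029) and the GC trend removed (0.039). Leaving out 1 library in turn also crossed 0 for Kitl (-0.16 to 0.55), Runx2 (-0.16 to 0.11), Saa3 (-0.44 to 0.040), Cxcl2 (-0.22 to 0.24), Il6 (-1.04 to 0.82), Lyz2 (-0.0076 to 0.25) and Cdh5 (-0.59 to 0.25). The cause was not tested. With 3 libraries a group, a p below 0.1 cannot be had from permutations.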
